A study of Mus musculus with 2 samples.

Results

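Dividing T cells were picked out of a single-cell RNA sequencing experiment on leukocytes from mouse lung. A cell barcode was counted as a cycling T cell when it held at least 500 genes and at most 10% of its unique molecular identifiers (UMIs, each standing for 1 captured transcript) from mitochondrial genes, at least 2 UMIs of the CD3 chains of the T cell receptor complex, Cd3d, Cd3e and Cd3g, together, at least 3 UMIs of the proliferation genes Mki67, Top2a and Birc5 together, and fewer than 5 UMIs of the macrophage genes C1qa, C1qb and C1qc together. This left 890 cells of 15001 barcodes, 582 of one library and 308 of the other. They were 890 of 6830 T cells, the barcodes that met every criterion except the one on proliferation genes. T cells without a UMI of Mki67, Top2a or Birc5, 4178 in all, are called non-cycling below, and the 1762 T cells with 1 or 2 such UMIs belong to neither group.

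The cells came from the lungs of mice killed 7 weeks after their first dose of urethane, a carcinogen that induces lung tumours. Live cells bearing CD45.2, a marker of blood-derived cells, were sorted and loaded on a droplet platform that reads the 3' ends of transcripts. The labels list 1 sample from mice carrying the Siah1a/2 knockout (Siah1a and Siah2 encode ubiquitin ligases) and 1 sample from wild-type mice, and give neither the age, sex and number of the animals nor the strain or type of the knockout allele. The deposited matrix pools both samples, and the endings of its barcodes, 1 and 2, are not matched to the genotypes in the labels. The endings are therefore called library 1 and library 2, no comparison of genotypes was made, and no difference between the libraries could be set against a spread between animals. The 95% intervals given below are exact and reflect counting error alone, since cells of 1 library are not replicates.

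T cells divide when antigen, costimulation and cytokines drive them out of rest. A dividing cell first raises the licensing and polymerase factors with which it copies its DNA, together with the enzymes that make nucleotides, and then the cyclins, kinases and motors of mitosis. CD8 T cells in tumour-bearing tissue can keep dividing while they carry inhibitory receptors such as PD-1, the product of Pdcd1, and Foxp3-positive regulatory T cells, which restrain other lymphocytes, also divide in inflamed tissue.

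Library 1 held 86227008 UMIs in 8522 barcodes and library 2 held 59459790 UMIs in 6479 barcodes. The cycling T cells were deep. Their median was 17312 UMIs and 4079.5 genes per cell in library 1, against 6478 UMIs and 2261 genes in non-cycling T cells of that library. In library 2 the medians were 15583 UMIs and 3912.5 genes in cycling T cells, against 6475 UMIs and 2288 genes in non-cycling T cells. Because a deeper cell reaches any UMI count more easily, shares were also computed after each cell had been thinned at random to 5000 UMIs, with shallower cells left out. The libraries shared 11 barcode sequences, and 1 of them belonged to a cycling T cell.

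Mki67, the Ki-67 antigen of dividing nuclei, Top2a, the topoisomerase that untangles replicated chromosomes, and Birc5, the survivin subunit of the chromosomal passenger complex, chose the cells, so their levels are given as a description. The median cell held 12 UMIs of the 3 genes together in library 1 and 12 in library 2. All 3 genes were seen in 56.4% of the cells of library 1 and in 54.2% of those of library 2. At the edge of the rule the signal was faint. T cells with 3 of these UMIs held, after thinning, a median of 4 UMIs of 36 DNA replication genes and 5 of 48 mitosis genes in library 1, and 4 and 4 in library 2. T cells just outside it, with 2 such UMIs, held 3.5 and 4 in library 1 and 3 and 4 in library 2, whereas cells with 30 or more held 15 and 48 in library 1 and 16.5 and 45.5 in library 2. The rule also passed over some cells, since 114 T cells outside it in library 1 (4.66% of those outside) and 73 in library 2 (3.46%) held at least 13 thinned UMIs of the replication genes, the median of the cycling T cells.

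T cell genes that the rule did not use were checked on the counts-per-million scale (CPM, the UMIs of a group of cells scaled to the group's total). Trbc2, a constant region of the receptor's beta chain, stood at 1577 CPM in cycling T cells against 220 in cycling cells without a Cd3 UMI of library 1, and at 1714 against 218 in library 2. Trac, the constant region of the alpha chain, stood at 667 against 13.0 CPM in library 1 and at 668 against 15.8 in library 2. Part of the cells went against the label, with less Trac and more NK genes, as given below for the unassigned cells. Markers of natural killer (NK) cells were abundant. The 13 NK markers, led by Gzmf in the cycling T cells of both libraries, summed to 2507 CPM in cycling T cells against 2803 in non-cycling T cells of library 1 and to 2073 against 2711 in library 2, and 50.2% of the cycling T cells of library 1 and 45.8% of those of library 2 held at least 10 of their UMIs. Gzmf and some other genes of this list are also made by CD8 T cells. Markers of the other lineages were lower. The 12 macrophage markers, led by Apoe, summed to 339 CPM in cycling T cells against 620 in non-cycling T cells of library 1, and to 283 against 468 in library 2, with none of the 12 at 0. At least 5 UMIs of these markers were held by 29.9% of the cycling T cells of library 1 and 10.7% of those of library 2. The 6 B cell markers reached 5 UMIs in 12.03% and 6.49% of the cycling T cells, and the 9 dendritic cell markers in 7.22% and 8.77%. The 5 mast cell and basophil markers reached 5 UMIs in 3 cycling T cells of library 1 and 5 of library 2, and the 5 neutrophil markers in 1 cell of library 1 and 3 of library 2. No doublet caller was run, and whether such barcodes hold more than 1 cell was not tested.

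Most cycling T cells were CD8 T cells, as were most T cells. A cell with at least 2 UMIs of Cd8a and Cd8b1, the chains of the CD8 coreceptor, and none of Cd4 or Foxp3 was assigned to the CD8 subset, which took in 418 of the 582 cycling T cells of library 1 (71.8%, interval 68.0 to 75.4%) and 234 of the 308 of library 2 (76.0%, 70.8 to 80.6%). Cells with a UMI of Foxp3, the transcription factor that defines regulatory T cells, and fewer than 2 CD8 UMIs numbered 53 in library 1 (9.11%, 6.90 to 11.7%) and 18 in library 2 (5.84%, 3.5 to 9.08%). Cells with a UMI of Cd4, the coreceptor of helper T cells, and none of Foxp3 numbered 11 in library 1 (1.89%, 0.947 to 3.36%) and 7 in library 2 (2.27%, 0.919 to 4.63%). Cells with at least 2 UMIs of Trdc, the constant region of the delta chain of the gamma-delta receptor, numbered 6 in library 1 and 8 in library 2. Among all T cells, the CD8 subset made up 61.9% in library 1 and 68.2% in library 2. Foxp3 cells made up 10.3% and 7.62% of all T cells, and CD4 cells without Foxp3 5.05% and 5.61%.

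The remaining cells fell into a mixed class with at least 2 CD8 UMIs and a UMI of Cd4 or Foxp3, 42 cells in library 1 and 19 in library 2, and an unassigned class of 52 and 22 cells. Mixed cells were deep, with medians of 20609.5 UMIs in library 1 and 20858 in library 2, and after thinning 7 and 5 cells met the rule and fell in the class. Unassigned cycling cells carried NK markers. Ncr1, the NK receptor NKp46, stood at 367 CPM (330 to 406) in unassigned cycling cells of library 1 and at 408 (340 to 486) in those of library 2, against 20.9 (17.7 to 24.4) and 21.5 (17.3 to 26.4) in cycling CD8 cells. Tyrobp, the adaptor of many NK receptors, stood at 1606 CPM in the unassigned cycling cells of library 1 and 1374 in those of library 2. Trac stood at 70.3 and 246 CPM in the same cells, against 725 and 724 in cycling CD8 cells. Of the 6 and 8 Trdc cells, all of those in library 1 and 62.5% of those in library 2 also held an Ncr1 UMI, so these small classes cannot be told apart from NK cells by these genes.

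The subset genes were seen at low rates in cells that should lack them. Among macrophages, taken as cells with at least 5 C1q UMIs and no Cd3 UMI, 1.58% (0.723 to 2.97%) of 571 cells in library 1 and 0.570% (0.0691 to 2.04%) of 351 in library 2 reached 2 CD8 UMIs, at median depths of 10903 and 11688 UMIs. A Foxp3 UMI was seen in 1.23% (0.494 to 2.51%) of macrophages in library 1 and 0.570% in library 2, and a Cd4 UMI in 1.75% and 1.71%. Mouse macrophages can transcribe Cd4 themselves. In cycling T cells the same thresholds were met for CD8 by 79.0% in library 1 and 82.1% in library 2, for Foxp3 by 14.8% and 9.74%, and for Cd4 by 11.7% and 10.7%, mixed cells included.

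At each cell's own depth, CD8 T cells were cycling at a higher share than CD4 T cells. In library 1, 17.8% (16.2 to 19.4%) of 2352 CD8 cells were cycling, against 13.5% (10.3 to 17.3%) of 393 Foxp3 cells and 5.73% (2.89 to 10.0%) of 192 CD4 cells without Foxp3. In library 2 the shares were 11.3% (10.0 to 12.8%) of 2065 CD8 cells, 7.79% (4.68 to 12.04%) of 231 Foxp3 cells and 4.12% (1.67 to 8.30%) of 170 CD4 cells. At this depth the order was the same in both libraries. The intervals of CD8 and CD4 cells did not overlap in either library, while those of neighbours in the order, CD8 and Foxp3 or Foxp3 and CD4, did, apart from Foxp3 and CD4 cells of library 1, where the Foxp3 interval began at 10.3% and the CD4 interval ended at 10.0%.

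The CD4 cells were shallower, with medians of 4616 UMIs in library 1 and 4910 in library 2, against 8008 and 7186 in CD8 cells. Thinning left out shallow cells and formed the subsets again, and the part of depth in the shares was not tested. After thinning, CD8 cells were cycling at 14.1% (12.7 to 15.7%) in library 1 and 9.27% (7.96 to 10.7%) in library 2, and Foxp3 cells at 11.7% (7.88 to 16.6%) and 9.30% (4.90 to 15.7%). CD4 cells deep enough to be thinned numbered 86 and 79, and 10.5% (4.90 to 18.9%) of them were cycling in library 1 and 2.53% (0.308 to 8.85%) in library 2. At equal depth the intervals of CD8 and CD4 cells therefore overlapped in library 1. In library 2 they overlapped as well, and Foxp3 cells, at 9.30%, stood beside CD8 cells, at 9.27%, so the order was no longer the same in both libraries.

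**Figure D1:**
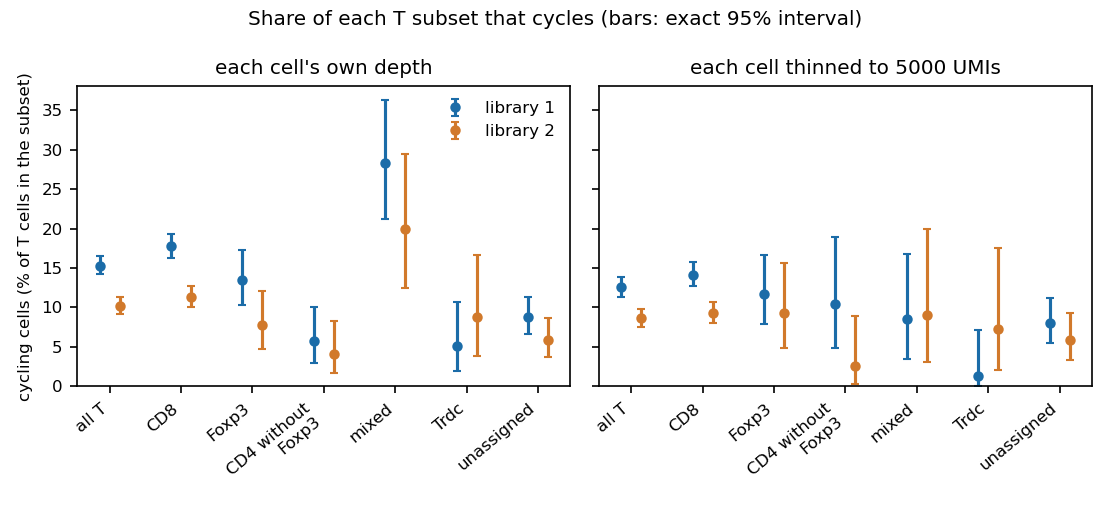
Share of each T subset that met the proliferation threshold, in percent of the T cells of that subset, with the cells at their own depth on the left and thinned to 5000 UMIs on the right. Points are libraries 1 and 2 and bars are exact 95% intervals; CD8 cells lie at 17.8% and 11.3% on the left and at 14.1% and 9.27% on the right, and the mixed class lies at 28.4% and 20.0% on the left and at 8.54% and 9.09% on the right.

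Over all T cells, 15.3% (14.2 to 16.5%) were cycling in library 1 and 10.2% (9.11 to 11.3%) in library 2, and after thinning 12.6% (11.4 to 13.8%) and 8.59% (7.49 to 9.80%). C1q UMIs, which T cells do not make, differed between the libraries too. Only 41.3% of the T cells of library 1 held no C1q UMI, against 72.1% in library 2. Among T cells without one, 10.1% (8.62 to 11.7%) were cycling in library 1 and 8.38% (7.25 to 9.62%) in library 2, and these intervals overlapped. Among T cells with 2 to 4 C1q UMIs, 24.7% (22.01 to 27.6%) were cycling in library 1 and 17.5% (12.7 to 23.4%) in library 2, at median depths of 10895 and 9523 UMIs. Because the classes differed in depth, they were formed again after thinning. Among thinned T cells without a C1q UMI, 14.2% (12.6 to 15.9%) were cycling in library 1 and 8.53% (7.31 to 9.88%) in library 2. Among thinned T cells with 2 to 4 C1q UMIs, 9.30% (6.45 to 12.9%) were cycling in library 1 and 5.56% (1.83 to 12.5%) in library 2, so the higher share of the raw class was not seen at equal depth. The criterion of fewer than 5 C1q UMIs left out similar shares of otherwise eligible cells, 155 of 737 (21.03%) in library 1 and 83 of 391 (21.2%) in library 2.

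The cycling T cells varied widely in their replication and mitosis UMIs. After thinning, the median cell held 13 UMIs of the replication genes and 15 of the mitosis genes in library 1, and 13 and 16.5 in library 2, against 3 and 3 in non-cycling T cells of either library. The middle 80% of cycling cells ran from 2 to 31 replication UMIs and from 4 to 62 mitosis UMIs in library 1, and from 2 to 34 and 3 to 66.8 in library 2. Mitosis UMIs outnumbered replication UMIs in 56.6% (52.4 to 60.7%) of the cycling T cells of library 1 and 51.7% (45.8 to 57.5%) of those of library 2. The balance in Foxp3 cells, 64.0% (49.2 to 77.1%) of 50 thinned cells in library 1 and 41.2% (18.4 to 67.1%) of 17 in library 2, was too imprecise to be separated from that of CD8 cells, 56.9% (52.0 to 61.7%) and 53.9% (47.2 to 60.5%). The balance is a range along 2 sums and not a set of classes, and 15.9% of the cycling cells in library 1 and 21.1% in library 2 lay within 3 UMIs of equality.

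**Figure D2:**
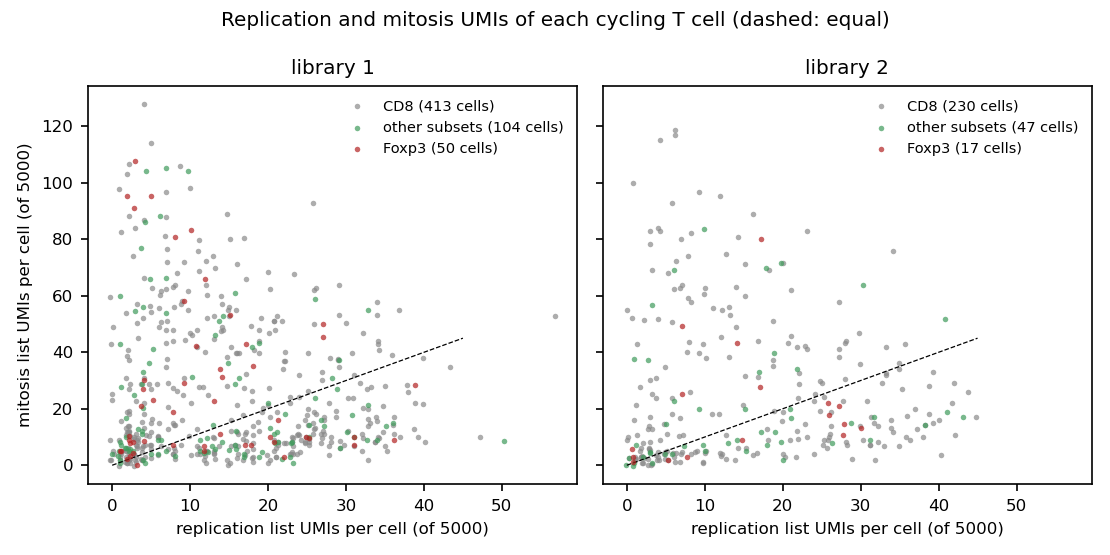
UMIs of the 36 replication genes (x axis) and the 48 mitosis genes (y axis) in each cycling T cell after thinning to 5000 UMIs, for library 1 on the left and library 2 on the right, with a small jitter. Grey points are CD8 cells, red points Foxp3 cells and green points all others; the dashed line marks equal sums. Cells spread along both axes, with many replication and few mitosis UMIs or the reverse, others are low in both, and Foxp3 cells of library 1 are found in each of these places.

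Within CD8 cells the share that cycled was set against UMIs of Pdcd1, of Havcr2, the inhibitory receptor TIM-3, and of Tcf7, the transcription factor TCF-1 of memory-like T cells, in thinned cells. These combinations were chosen after the values of the genes had been seen. Cells with Pdcd1 and Havcr2 but no Tcf7 were cycling at 13.7% (10.8 to 17.1%) of 489 in library 1 and 9.07% (6.59 to 12.1%) of 452 in library 2. Cells with Pdcd1 alone were cycling at 15.4% (12.9 to 18.2%) of 748 and 11.5% (8.99 to 14.5%) of 555. For cells with Pdcd1 and Tcf7 but no Havcr2, the share was 8.11% (1.70 to 21.9%) of 37 in library 1. It was 2.78% (0.0703 to 14.5%) of 36 in library 2. Cells with Tcf7 alone were cycling at 5.88% (2.57 to 11.3%) of 136 in library 1 and 1.90% (0.232 to 6.71%) of 105 in library 2. Cells with none of the 3 genes were cycling at 10.6% (7.85 to 13.9%) of 424 in library 1 and 8.79% (6.26 to 11.9%) of 421 in library 2. In both libraries the interval of the cells with Tcf7 alone lay below that of the cells with Pdcd1 alone. It overlapped that of the cells with none of the 3 in both libraries, and that of the cells with Pdcd1 and Havcr2 in both. The states were also counted in the CD8 cells that met the rule at their own depth and could be thinned. Of these, 43.8% in library 1 and 34.8% in library 2 held Pdcd1 alone. Pdcd1 and Havcr2 without Tcf7 were held by 26.4% and 26.1%, and Tcf7 alone by 3.39% and 1.74%. The states with Pdcd1 alone and with Pdcd1 and Havcr2 were also the most common among all thinned CD8 cells, by the cell numbers above. Within each state, 24.2% and 14.4% of the cells with Pdcd1 alone met the rule at their own depth. The shares were 22.3% and 13.3% with Pdcd1 and Havcr2, 16.3% and 12.1% with none of the 3, and 10.3% and 3.81% with Tcf7 alone.

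Gene by gene, cycling CD8 cells were set against non-cycling CD8 cells of the same library by the ratio of their CPM. The cells were chosen on 3 proliferation genes, so every such ratio describes the chosen cells and none was tested. Genes with at least 50 UMIs in the 2 sums together were compared, 10398 in library 1 and 10072 in library 2. Of these, 5.94% were at least 2-fold higher in cycling cells with an interval clear of 0 in library 1 and 6.67% in library 2, and 3.48% and 3.12% were at least 2-fold lower. Over the genes compared in both libraries, 499 were higher and 143 lower by this measure in both. The median log2 ratio of all genes was -0.04 in library 1 and -0.01 in library 2.

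Genes of DNA replication were higher almost without exception. Of 36, 34 passed 2-fold in library 1 and 35 in library 2, with median log2 ratios of 2.61 and 2.80. Mcm5, a subunit of the replicative helicase, stood at 148 CPM in cycling CD8 cells against 25.9 in non-cycling CD8 cells of library 1 (log2 ratio 2.51, 2.32 to 2.72), and at 151.5 against 21.1 in library 2 (2.84, 2.61 to 3.08). Pcna, the sliding clamp of DNA polymerases, stood at 273.5 against 88.0 in library 1 (1.63) and at 308 against 94.5 in library 2 (1.71). Pcna was thus well above 0 in cells without a UMI of the 3 rule genes. Clspn, the checkpoint mediator claspin, had log2 ratios of 4.31 and 4.49, and Uhrf1, which carries DNA methylation across replication, had 3.38 in library 1 and 3.56 in library 2.

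Mitosis genes showed the widest ratios. Of 48, 47 passed 2-fold in each library, with medians of 4.90 and 5.04. Cenpf, a kinetochore protein, stood at 224 CPM in cycling CD8 cells against 1.86 in non-cycling CD8 cells of library 1 (6.87, 6.25 to 7.67) and at 233 against 2.06 in library 2 (6.79, 6.19 to 7.54). Cdk1, the kinase that starts mitosis, had log2 ratios of 4.89 (4.48 to 5.36) and 5.20 (4.76 to 5.72), and Ccnb1, its cyclin partner, had 4.30 (3.81 to 4.89) and 5.11 (4.51 to 5.86). Nucleotide synthesis genes were higher too, 15 of 23 genes in library 1 and 16 of 22 in library 2 passing 2-fold higher. Rrm2, the regulated subunit of ribonucleotide reductase, stood at 177 CPM in cycling CD8 cells against 2.27 in non-cycling CD8 cells of library 1 (6.25) and at 194 against 3.297 in library 2 (5.86). Of 24 histone, chromatin and tubulin genes, 22 in library 1 and 23 in library 2 passed 2-fold higher, among them Stmn1, a regulator of microtubules, at 4.56 and 5.23, and of 15 DNA damage and repair genes 11 in library 1 did so and 9 of 14 in library 2. Because reads of histone genes can be split among near-identical copies, values of single histone genes are uncertain.

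The promoters of these genes carried the sequence elements known for cell cycle control. RefSeq promoter windows of build GRCm38.p6, from 250 bases before to 50 after each start, were searched on both strands for TTTGAA, the cell cycle homology element bound by the MuvB complexes, for its variant TTCGAA, for CCAAT, the element of NF-Y, and for TTCCCGC and TTTGGCGC, forms of the E2F site. TTTGAA was found in 72.7% of 44 windows of mitosis genes and in 17.9% of all 32851 windows, and CCAAT in 79.5% of the mitosis windows against 37.4% of all. TTCCCGC or TTTGGCGC was found in 17 of 34 windows of replication genes against 5.06% of all. The mitosis and replication genes are well known for these elements, so the same search was made over genes by their measured ratio. Over all T cells, 5.48% of the genes compared were past 2-fold higher in cycling cells of library 1 and 5.37% lower, and 6.2% and 3.95% in library 2. Of 426 windows of genes past 2-fold higher in both libraries and in neither list, 26.3% held TTTGAA and 23.2% held one of the E2F forms. Of 198 windows of genes past 2-fold lower in both libraries, 13.6% and 2.53% did, and of 9796 windows of the other measured genes 11.8% and 8.87%. A match describes letters in a window and not a bound factor. Windows of Mki67 and Top2a, which chose the cells, of Hmmr, a spindle protein, and of Uhrf1, which holds an E2F form, are shown. Hmmr ranked first by its ratio over all T cells among the mitosis genes considered at 50 CPM or more. The windows read 5' to 3' on the gene's strand, with every match on either strand in capitals. In the Uhrf1 window, 1 of 2 that the table lists for the gene, a CCAAT just before the start shares 2 letters with a match on the opposite strand, and no other matches in the 4 windows overlap.
Mki67, chr7:135716330-135716629, minus strand: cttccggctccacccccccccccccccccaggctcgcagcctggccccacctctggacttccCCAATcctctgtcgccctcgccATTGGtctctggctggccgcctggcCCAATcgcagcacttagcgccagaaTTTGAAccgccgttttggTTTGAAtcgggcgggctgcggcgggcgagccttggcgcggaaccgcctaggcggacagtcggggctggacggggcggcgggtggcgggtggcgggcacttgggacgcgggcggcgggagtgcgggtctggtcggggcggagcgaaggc
Top2a, chr11:99024140-99024439, minus strand: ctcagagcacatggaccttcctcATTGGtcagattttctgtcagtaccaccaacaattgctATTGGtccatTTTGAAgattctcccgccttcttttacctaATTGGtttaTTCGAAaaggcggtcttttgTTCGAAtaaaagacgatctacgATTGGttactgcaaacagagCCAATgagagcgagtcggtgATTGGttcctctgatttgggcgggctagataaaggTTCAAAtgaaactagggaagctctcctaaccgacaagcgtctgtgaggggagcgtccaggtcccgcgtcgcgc
Hmmr, chr11:40733388-40733687, minus strand: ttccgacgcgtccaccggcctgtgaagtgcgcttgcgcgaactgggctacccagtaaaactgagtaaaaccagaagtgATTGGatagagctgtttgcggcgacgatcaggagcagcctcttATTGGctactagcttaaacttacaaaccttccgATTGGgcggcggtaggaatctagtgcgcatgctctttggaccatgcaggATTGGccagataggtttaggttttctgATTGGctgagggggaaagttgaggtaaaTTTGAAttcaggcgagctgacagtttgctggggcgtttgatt
Uhrf1, chr17:56303087-56303386, plus strand: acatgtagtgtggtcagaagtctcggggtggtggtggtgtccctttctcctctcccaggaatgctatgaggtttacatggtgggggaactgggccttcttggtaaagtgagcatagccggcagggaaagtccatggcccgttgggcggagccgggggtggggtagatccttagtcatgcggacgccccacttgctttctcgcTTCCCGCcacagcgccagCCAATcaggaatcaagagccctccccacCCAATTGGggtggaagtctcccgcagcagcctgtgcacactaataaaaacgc
Mki67 held TTTGAA and CCAAT, and Top2a held CCAAT with both forms of the homology element. The window of Birc5 held none of the 5 motifs and that of Clspn held CCAAT alone.

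Regulators of entry into the cycle differed in both directions. E2f1, the transcription factor of S phase genes, stood at 38.2 CPM in cycling CD8 cells against 4.75 in non-cycling CD8 cells of library 1 (2.99) and at 37.3 against 4.74 in library 2 (2.97), and Foxm1, which drives mitosis genes, had log2 ratios of 4.75 and 5.43. Cdk4, the G1 kinase, had 1.04 and 1.02. Its partner Ccnd2, cyclin D2, was lower, at 148 CPM in cycling CD8 cells against 354 in non-cycling CD8 cells of library 1 (-1.26, -1.36 to -1.16) and at 193 against 389 in library 2 (-1.01, -1.12 to -0.90). Of 14 such genes, 9 in library 1 and 10 in library 2 passed 2-fold higher and 1 passed 2-fold lower in each. Inhibitors were split as well. Cdkn1b, the inhibitor p27 of resting cells, had log2 ratios of -0.96 and -0.82 and Btg1, an antiproliferative factor, -1.06 and -1.11, whereas Cdkn2a had 2.42 and 1.79 and Cdkn2c, the inhibitor p18, 1.46 and 1.43. Txnip, a brake on glucose uptake, stood at 110 CPM in cycling CD8 cells against 286.5 in non-cycling CD8 cells of library 1 (-1.38) and at 129 against 370 in library 2 (-1.52). Of the inhibitors measured, 2 of 19 passed 2-fold higher and 4 lower in library 1, and 2 of 18 higher and 4 lower in library 2.

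Energy metabolism differed by less. None of 16 genes of oxidative phosphorylation passed 2-fold in either library, yet all 16 had intervals above 0 in both, where 25.8% of all genes in library 1 and 25.7% in library 2 did. Their medians were 0.54 in library 1 and 0.52 in library 2. Of 19 glycolysis genes, 11 in library 1 and 10 in library 2 had intervals above 0 and 2 and 3 below, with medians of 0.22 and 0.17, which turned to -0.03 and -0.09 among CD8 cells of 8000 to 20000 UMIs.

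**Figure D3:**
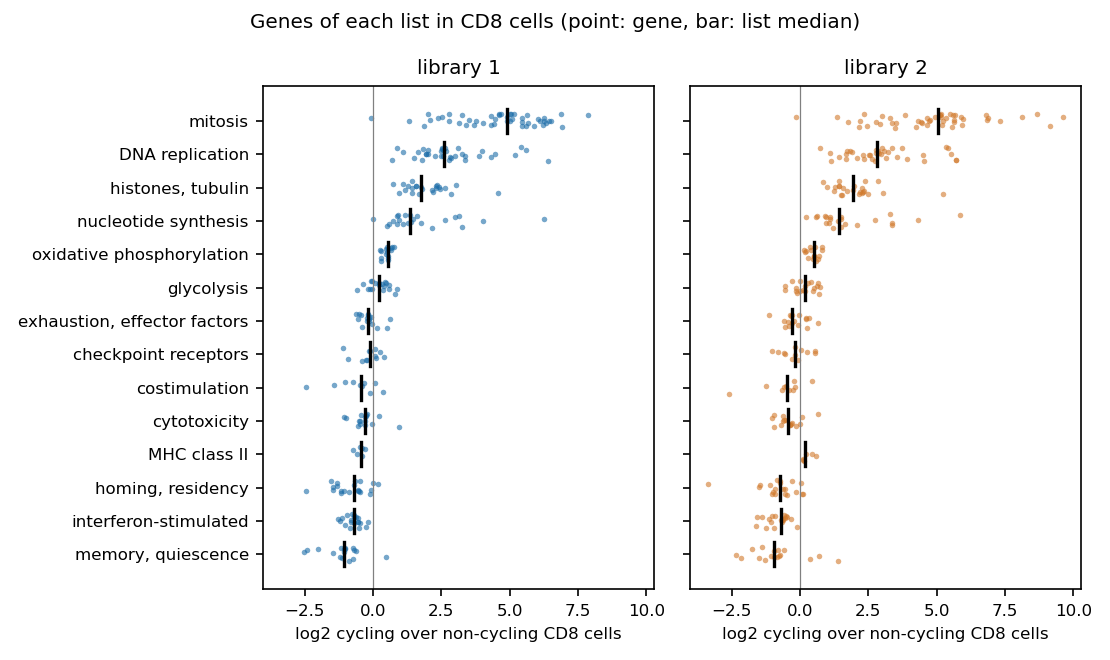
Log2 ratio of cycling over non-cycling CD8 cells for the genes of 14 lists, library 1 on the left and library 2 on the right. Each point is a gene and each bar the median of its list; mitosis and replication genes lie far to the right, with medians of 4.90 and 2.61 in library 1 and 5.04 and 2.80 in library 2, and memory and quiescence genes lie to the left with medians of -1.06 and -0.95.

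Genes of rest and memory held a smaller share of the transcripts of cycling CD8 cells. Of 17 measured, 11 passed 2-fold lower in library 1 and 7 in library 2, with medians of -1.06 and -0.95. Il7r, the receptor for the survival cytokine IL-7, stood at 45.4 CPM in cycling CD8 cells against 184 in non-cycling CD8 cells of library 1 (-2.02, -2.19 to -1.85) and at 68.8 against 233 in library 2 (-1.76, -1.94 to -1.58). Klf2, a factor of quiescence and recirculation, stood at 105.5 against 290 in library 1 (-1.46) and at 110 against 286 in library 2 (-1.38). S1pr1, the receptor with which T cells leave tissues, had log2 ratios of -2.52 and -2.33, Bcl2, which prevents cell death, -1.16 and -0.95, and Tcf7 -0.88 (-1.18 to -0.59) and -1.27 (-1.69 to -0.89). Id3 went opposite ways, -0.61 in library 1 and 1.39 in library 2, and the difference was not tested.

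These ratios are shares of transcripts, and a cycling cell held more transcripts. Over all T cells the medians were 17312 UMIs in cycling against 6478 in non-cycling cells of library 1, and 15583 against 6475 in library 2. A gene with an equal share in both groups therefore has more UMIs per cell in cycling cells. How many of all genes had more UMIs per cell was not computed. The counts of genes per cell, here and below, do not by themselves show higher expression. Per cell, Il7r averaged 0.823 UMIs in cycling CD8 cells against 1.41 in non-cycling CD8 cells of library 1 and 1.24 against 1.74 in library 2, and Klf2 averaged 1.91 against 2.22 and 1.98 against 2.14. Of the 17 memory and quiescence genes, 13 in library 1 and 11 in library 2 had more UMIs per cell in cycling than in non-cycling CD8 cells, with median ratios of 1.13 and 1.25. The median was 14.6 and 16.9 for replication genes, 71.0 and 71.7 for mitosis genes and 1.93 and 1.86 for the T cell markers. Among CD8 cells of 8000 to 20000 UMIs, 249 cycling against 415 non-cycling in library 1 and 136 against 356 in library 2, Il7r had a log2 ratio of -1.05 and -0.95 and Klf2 -1.14 and -1.27. The list medians there were -0.99 and -0.95 for memory and quiescence, 2.41 and 2.53 for replication and 4.47 and 4.68 for mitosis. Cycling cells were still deeper within this range, with medians of 14930 against 10030 UMIs in library 1 and 13259.5 against 9908.5 in library 2.

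Receptors of exhausted T cells were near the level of non-cycling cells. Pdcd1 stood at 357 CPM in cycling CD8 cells against 302 in non-cycling CD8 cells of library 1 (0.24, 0.16 to 0.32) and at 289 against 283 in library 2 (0.03, -0.06 to 0.13). Havcr2 had log2 ratios of -0.13 and -0.19, Lag3 -0.26 and -0.30, and Ctla4 -0.40 and -0.53. Of 12 checkpoint receptors none passed 2-fold higher in either library and 1, Vsir, the receptor VISTA, passed 2-fold lower in both, at -1.09 and -1.02. Tox, the transcription factor tied to exhaustion, stood at 200.5 CPM in cycling CD8 cells against 142 in non-cycling CD8 cells of library 1 (0.50, 0.40 to 0.61) and at 149 against 94.3 in library 2 (0.66, 0.51 to 0.81). Among costimulatory receptors, Icos was lower, with ratios of -1.41 and -1.23 (-0.76 and -0.45 among cells of 8000 to 20000 UMIs), and Tnfrsf9, the receptor 4-1BB, was higher, with 0.36 and 0.42.

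Effector genes differed in both directions. Of 16 genes of cytotoxicity, 12 had intervals below 0 in each library, where 28.1% of all genes in library 1 and 22.9% in library 2 did, with medians of -0.30 and -0.44. Per cell, all 16 had more UMIs in cycling than in the shallower non-cycling CD8 cells of both libraries, with median ratios of 1.93 and 1.78. Prf1, perforin, had log2 ratios of 0.20 and 0.08 and Gzmb, granzyme B, had -0.21 and -0.01, and Ifng, the gene of interferon gamma, had -0.24 and -0.59. Gzmc, another granzyme, was higher at 0.95 and 0.67, and Gzma was lower at -1.07 and -0.69. Sums of granzyme UMIs can rest on few cells, as given below for Gzmf. The ratios of Gzmc and Gzma therefore need not describe the typical cycling CD8 cell. Ccl5, a chemokine of effector and memory T cells and among the most abundant transcripts, stood at 1181 CPM in cycling CD8 cells against 3286 in non-cycling CD8 cells of library 1 (-1.48, -1.51 to -1.44) and at 1235 against 3377 in library 2 (-1.45, -1.49 to -1.41). Per cell, Ccl5 averaged 21.4 UMIs in cycling CD8 cells against 25.1 in non-cycling CD8 cells of library 1 and 22.3 against 25.3 in library 2, and among cells of 8000 to 20000 UMIs its log2 ratios were -1.16 and -0.88.

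Genes of homing and tissue residency were mostly lower. Of the measured genes, 9 of 21 passed 2-fold lower in library 1 and 5 of 20 in library 2, with medians of -0.68 and -0.73 (-0.37 and -0.52 among cells of 8000 to 20000 UMIs). Per cell, 15 of 21 in library 1 and 17 of 20 in library 2 had more UMIs in the deeper cycling CD8 cells. Itgae, the residency integrin CD103, had log2 ratios of -2.45 (-3.29 to -1.77) and -3.36 (-4.44 to -2.56) from 18 and 11 UMIs in cycling cells. Itga1, the integrin CD49a, had -1.46 and -1.49 (-0.90 and -0.54 among cells of 8000 to 20000 UMIs). Cd69 had -1.07 and -1.01, Cxcr3 -1.32 and -0.92, and Ccr2 -1.54 and -0.91. Interferon-stimulated genes held a smaller share of transcripts, 19 of 20 with intervals below 0 in each library, where 28.1% and 22.9% of all genes did, and medians of -0.70 and -0.68. Per cell, 19 of the 20 in library 1 and 17 in library 2 had more UMIs in the deeper cycling CD8 cells, with median ratios of 1.45 and 1.51. Ifit1 stood at 91.8 CPM in cycling CD8 cells against 222 in non-cycling CD8 cells of library 1 (-1.27) and at 92.9 against 281 in library 2 (-1.60). Slfn5, also induced by interferon, ranked first among the lower genes of cycling CD8 cells over both libraries together, at -1.98 and -2.01, and stood at similar ratios among cells of 8000 to 20000 UMIs, -2.01 and -2.19. Slfn5 was also lower per cell and averaged 0.763 UMIs in cycling CD8 cells against 1.27 in non-cycling CD8 cells of library 1 and 0.774 against 1.29 in library 2.

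The threshold of 3 rule UMIs cut a gradient. Over CD8 cells with 0, 1, 2, 3 to 4, 5 to 9, 10 to 29 and 30 or more rule UMIs, replication genes summed to 742, 956, 1394, 2263, 3531, 3603 and 3435 CPM in library 1 and to 719, 783, 1311, 2060, 3394, 3634 and 3521 in library 2. Mitosis genes summed to 651 and 652 CPM in non-cycling CD8 cells of libraries 1 and 2. They rose to 792 and 807 CPM up to 2 rule UMIs, and reached 9678 and 9597 at 30 or more. The sums of both lists were thus above those of non-cycling cells already below the threshold. Those of replication genes were level above 5 rule UMIs, whereas mitosis genes were highest in the last class. The median thinned CD8 cell with 1 or 2 rule UMIs held 3 replication UMIs, as did the median non-cycling cell, in both libraries, and the 90th percentile was 11 against 7 in library 1 and 8 against 7 in library 2. Ccl5 was lower in every class of 3 or more rule UMIs than in the classes below, and stood at 831 CPM at 30 or more in library 1 and at 1173 in library 2. Pdcd1 ran between 292 and 364 CPM in library 1 and between 265 and 338 in library 2, with no order.

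**Figure D4:**
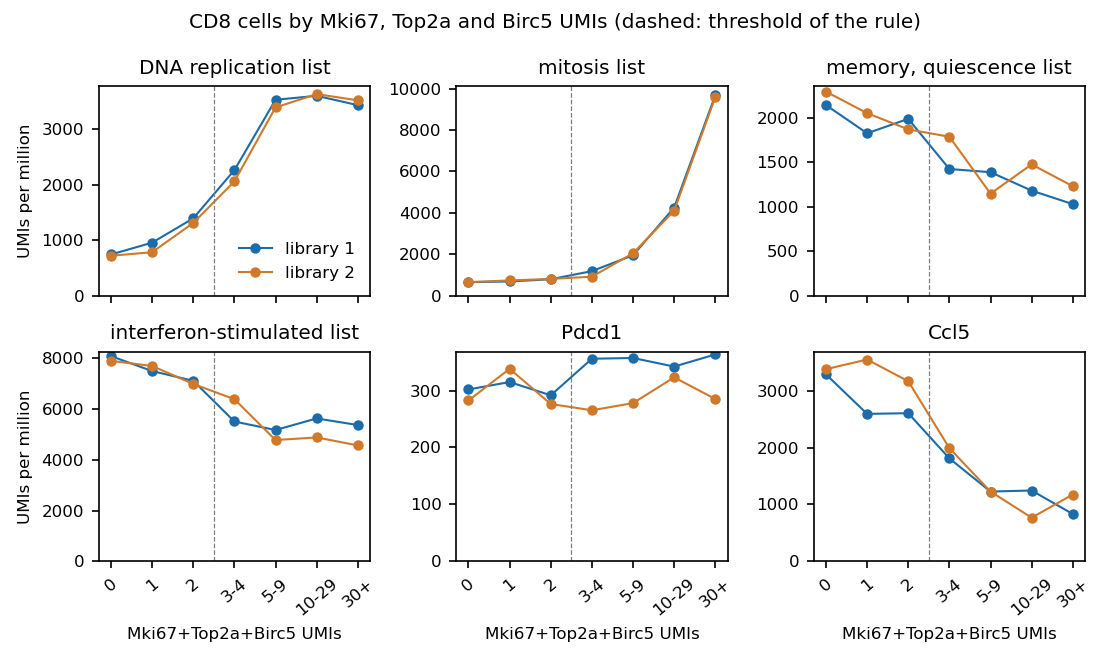
CPM in CD8 cells grouped by their UMIs of Mki67, Top2a and Birc5 (x axis), for 4 gene lists and for Pdcd1 and Ccl5, with library 1 in blue, library 2 in orange and the threshold of the rule as a dashed line. Replication genes level off near 3500 CPM, mitosis genes climb to 9678 and 9597, Ccl5 lies lower in the classes right of the line than in those left of it, and Pdcd1 stays between 265 and 364.

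Cycling Foxp3 cells were few, and their ratios less precise. Of 5933 genes compared in library 1, 4.55% passed 2-fold higher and 4.84% lower against non-cycling Foxp3 cells, and of 4469 in library 2, 8.21% and 11.1%. All 22 measured replication genes in library 1 and 10 of 11 in library 2 passed 2-fold higher, as did 34 of 35 mitosis genes in library 1 and 14 of 16 in library 2. Mcm5 had log2 ratios of 2.52 (1.99 to 3.10) and 3.11 (2.40 to 3.94) and Rrm2 5.90 (4.68 to 7.96) and 5.62 (4.22 to 8.14), close to those of CD8 cells. Among genes compared in both subsets and past 2-fold in both libraries, 98 were higher in both subsets, which is 71.5% of those higher in CD8 cells and 81.7% of those higher in Foxp3 cells. The lower genes shared less, 20 genes, 37.0% of those of CD8 cells and 22.5% of those of Foxp3 cells.

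Markers of regulatory T cells stayed present in the cycling Foxp3 cells at a lower share. Foxp3 itself, which chose the subset, stood at 212 CPM in cycling Foxp3 cells against 418 in non-cycling Foxp3 cells of library 1 (-0.97, -1.21 to -0.75) and at 198 against 379 in library 2 (-0.93, -1.30 to -0.59). Since 1 UMI sufficed, a deeper cell could enter the subset at a lower level of Foxp3, and cycling cells were deeper, and the part of this in the ratio was not tested. Of 15 markers in library 1, 11 had intervals below 0, and of 14 in library 2, 12 did, where 20.5% and 24.8% of all genes did. Counted per cell, all 15 in library 1 and 12 of 14 in library 2 had more UMIs in cycling than in the shallower non-cycling Foxp3 cells. The median ratios per cell were 1.71 and 1.68. Tnfrsf4, the receptor OX40, stood at 1857 CPM in cycling Foxp3 cells against 2759 in non-cycling Foxp3 cells of library 1 (-0.57) and at 1355 against 2874 in library 2 (-1.08). Icos had -0.72 and -1.15 and Tnfrsf18, the receptor GITR, -0.61 and -1.17. Il2ra, the receptor chain CD25, differed between the libraries in sign, at -0.37 (-0.58 to -0.16) in library 1 and 0.09 (-0.15 to 0.32) in library 2, and the difference was not tested. Il10, a suppressive cytokine, had -0.74 (-1.16 to -0.35) in library 1 and -3.34 (-4.92 to -2.30) in library 2, the value of library 2 resting on 6 UMIs in cycling cells.

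Cycling Foxp3 cells were also set against cycling CD8 cells of the same library. Of the genes compared, 5.71% passed 2-fold higher and 4.48% lower in library 1, and 5.65% and 6.34% in library 2. Il2ra stood at 296 CPM in cycling Foxp3 cells against 24.8 in cycling CD8 cells of library 1 (3.57, 3.3 to 3.85) and at 514 against 32.8 in library 2 (3.97, 3.65 to 4.29), and the ratio between non-cycling cells of the 2 subsets was 3.74 in library 1 and 3.49 in library 2. Itgae stood at 126 against 2.38 in library 1 (5.70) and at 140 against 2.60 in library 2 (5.70), against 4.06 and 3.401 between non-cycling cells. Maf, a transcription factor of effector regulatory T cells, had log2 ratios of 4.82 and 4.25 and Ikzf2, Helios, 2.03 and 2.47. Klrg1, a receptor of differentiated T cells, had 5.60 and 4.36. All 6 MHC class II genes passed 2-fold higher in both libraries, with medians of 2.23 and 2.66, and summed to 5822 CPM in cycling Foxp3 cells against 1200 in cycling CD8 cells of library 1 and to 16299 against 2368 in library 2. Beside them, the 12 macrophage markers summed to 512 against 297 CPM in library 1 and to 395 against 275 in library 2, with 2 of the 12 at 0 in cycling Foxp3 cells of library 2, and the 9 dendritic cell markers to 168 against 75.7 and to 352 against 43.5. Their part in the class II levels was not tested. Between non-cycling cells of the 2 subsets, all 6 class II genes also passed 2-fold higher in both libraries, with medians of 1.52 and 1.80. The class II values are sums over cells. A few cells can carry such a sum, as given below for H2-Ab1 in cycling CD8 cells. The class II values therefore need not describe the typical cycling Foxp3 cell.

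Most cytotoxic genes were on the CD8 side, 11 of 16 in library 1 and 11 of 15 in library 2 passing 2-fold lower and none higher. Between non-cycling cells of the 2 subsets, 10 of 16 in library 1 and 12 of 16 in library 2 passed 2-fold lower, and 1 higher in each. Ifng stood at 28.6 CPM in cycling Foxp3 cells against 393 in cycling CD8 cells of library 1 (-3.75) and at 4.82 against 351 in library 2, where 2 UMIs gave a log2 ratio of -5.86 (-9.23 to -4.33). Prf1 had -2.87 and -3.03 and Pdcd1 -2.89 and -3.26. Gzmb lay closer, at 1442 CPM in cycling Foxp3 cells against 1367 in cycling CD8 cells of library 1 (0.08, -0.01 to 0.16) and at 1425 against 2197 in library 2 (-0.62, -0.75 to -0.50), and Srgn, the granule proteoglycan serglycin, was higher at 0.86 and 0.51. Gzmc had 0.13 (-0.01 to 0.26) in library 1 and -6.08 in library 2, where cycling Foxp3 cells held 3 UMIs. The value of library 1 is a ratio of sums, which few cells can carry, and need not describe the typical cycling Foxp3 cell. Few cell cycle genes passed 2-fold. No mitosis gene of 48 passed 2-fold in either direction in library 1 and 3 passed 2-fold lower in library 2, with medians of -0.01 and -0.43, and for replication genes, of which 2 of 36 passed 2-fold lower in library 1 and none in library 2, the medians were -0.43 and -0.17. Of 14 genes of cycle entry, 3 in library 1 and 2 in library 2 passed 2-fold higher, among them Ccnd1, cyclin D1, at 1.94 and 2.73 and Ccnd2 at 1.19 and 1.04.

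Cycling cells without any Cd3 UMI, 88 in library 1 and 95 in library 2, met the same threshold of proliferation genes, so similar levels of cycle genes follow from the choice of cells and are given as a description. None of 36 replication genes passed 2-fold in either library, with medians of 0.27 and -0.03. Of 48 mitosis genes, 1 passed 2-fold lower in library 1 and 4 passed 2-fold higher in library 2, with medians of -0.00088 and 0.44. Of the genes compared, 5.35% passed 2-fold higher in cycling T cells of library 1 and 4.65% in library 2, and 4.59% and 4.78% lower. Bcl11b, the factor that commits cells to the T lineage, stood at 105 against 4.09 in library 1 (4.57) and at 109 against 2.64 in library 2 (5.20), and Cxcr6, a chemokine receptor of tissue T cells, had 5.66 and 6.01. Ncr1 was lower in cycling T cells at -2.46 and -2.64, Gzma at -2.90 and -3.29, and the mast cell protease gene Cma1 at -4.41 and -3.44.

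Between the libraries the cycling T cells differed in few genes. Of 10348 genes compared, 0.841% passed 2-fold higher in library 1 and 0.957% lower. Replication and mitosis genes had median log2 ratios of library 1 over library 2 of -0.06 and -0.03, at the median of all genes, -0.06, and none of the 84 passed 2-fold. Mki67 stood at 451 CPM in library 1 against 435 in library 2 and Top2a at 573 against 605. Gm42031 was the highest in library 1, at 155 against 17.9 (3.11, 2.83 to 3.43), and Ifi208, an interferon-inducible gene, the lowest, at 7.38 against 54.7 (-2.88, -3.26 to -2.53). Of the 15 highest, 14 had the same direction in non-cycling T cells and 14 in cells without Cd3, and of the 15 lowest 14 and 14. In non-cycling T cells Gm42031 had a log2 ratio of 3.30 and Ifi208 one of -2.02, and in cells without Cd3 they had 2.59 and -3.05. Ccr7, a receptor for homing to lymph nodes, had a log2 ratio of 1.01 in cycling T cells and 0.07 in non-cycling T cells. In cycling T cells of library 1, 7 cells held 50% or more of the Ccr7 UMIs, and the ratio of Ccr7 was -0.43 after thinning.

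**Figure D5:**
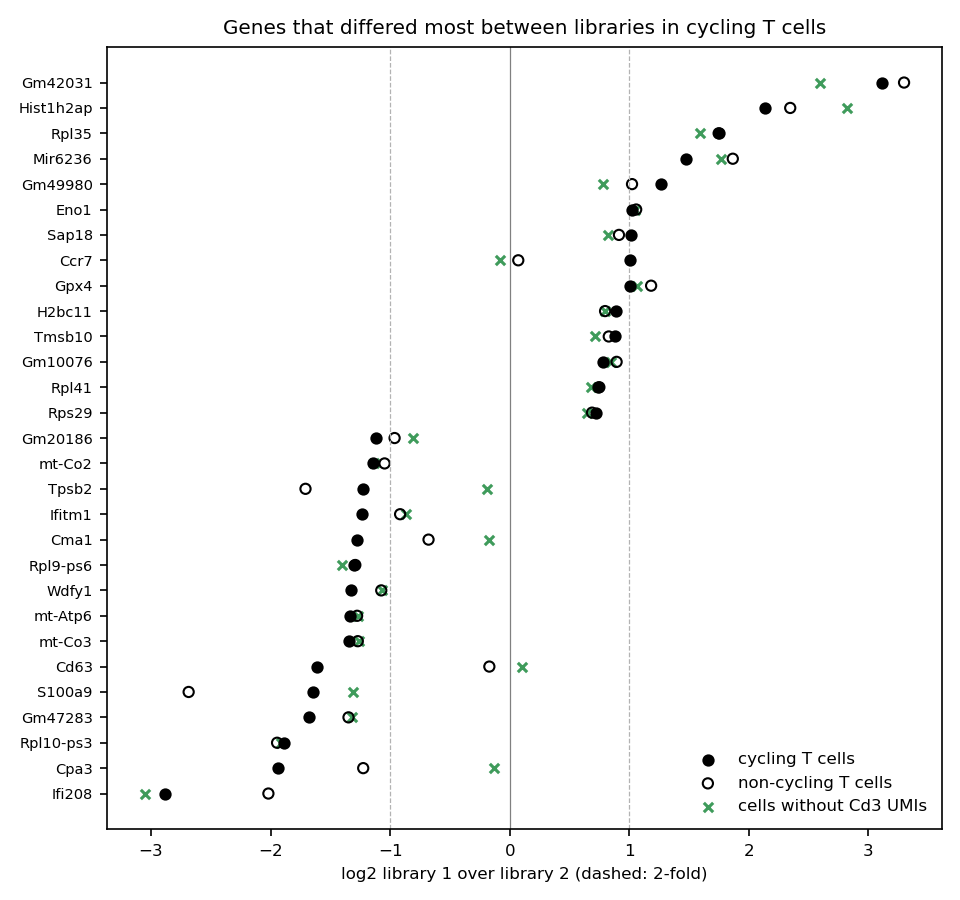
Log2 ratio of library 1 over library 2 for 14 of the 15 highest and the 15 lowest genes in cycling T cells (filled circles), with the same genes in non-cycling T cells (open circles) and in cells without Cd3 UMIs (green crosses), and 2-fold marked by dashed lines. Most genes have all 3 symbols on the same side, such as Gm42031 with 3.11 in cycling T cells and Ifi208 with -2.88.

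Some of the lowest genes came from single cells. In cycling CD8 cells of library 2, 1 cell held 913 of 947 UMIs of Cma1 (96.4%), 95.8% of those of Cpa3 and 98.0% of those of Tpsb2, which are mast cell genes. S100a9, a neutrophil gene, had 86.9% of its UMIs in 1 cycling CD8 cell of library 1 and 59.8% in 1 of library 2. With cells of at least 5 mast cell or neutrophil UMIs left out, an alternative chosen after seeing the data, the log2 ratio of Cma1 in cycling CD8 cells was 1.503, against -4.69 with them. The 6 MHC class II genes, made by antigen-presenting cells, had a median of -1.04 in cycling CD8 cells, and for H2-Ab1 4 cells held 50% or more of the UMIs in each library. With cells holding Ncr1 or macrophage UMIs left out, that median was 0.87. Gzmf, a granzyme of NK and CD8 cells, stood at 804 CPM in cycling CD8 cells against 775 in non-cycling CD8 cells of library 1 and at 520 against 1065 in library 2, and 4 cells in each library held 50% or more of its UMIs in cycling CD8 cells.

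The Siah genes were low in cycling T cells. The knockout label names Siah1a and Siah2, and Siah1b is a related gene. Siah2 stood at 20.9 CPM in cycling T cells of library 1 against 25.1 in library 2 (-0.27, -0.58 to 0.05), Siah1a at 8.31 against 10.7 (-0.36, -0.85 to 0.14) and Siah1b at 5.91 against 6.68 (-0.19, -0.78 to 0.45). None was missing from either library, and reads of the 3' end can lie outside a deleted part, so these levels check no label and were not used to assign one. In non-cycling T cells Siah2 stood at 21.6 against 28.0 (-0.37, -0.58 to -0.16).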

How the data were processed

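Per the submitters' processing notes, the reads were processed with Cell Ranger 6.1.2 on build mm10, and other steps are not given in the sources used here. The authors deposited whole-number UMI counts per gene and barcode, 55401 genes by 15001 barcodes, pooled over both samples per the file headers; no genotype could be read for a barcode. UMIs were summed per library and group of cells and scaled to CPM. Log2 ratios carried a pseudocount of 0.5 UMI in each sum and were formed where a gene's 2 sums added up to 50 UMIs or more. Exact 95% intervals (binomial, on the split of a gene's UMIs between the 2 sums, or Clopper-Pearson for shares) cover counting error only; with 1 sample per label there is no test and no p-value. A gene counted as past 2-fold when its ratio exceeded 2 and its interval excluded 0 on the log2 scale. The ratio script was tested on simulated data. No doublet caller was run. Results of 2 genes are not reported here.

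The members and gene lists were chosen with earlier results of these data known. Genes named by rank were the 15 highest and 15 lowest ratios per comparison among genes at 50 CPM or more in 1 of the 2 groups whose interval excluded 0; for cycling over non-cycling cells the sign had to be the same in both libraries and the smaller ratio set the rank, again with the cell cycle lists left out. Other named genes are rule, subset and Siah genes and members of the lists with large ratios or a role described. The Uhrf1 promoter, the CD8 states by Pdcd1, Havcr2 and Tcf7, the C1q classes, the counts of cells that hold most of a gene's UMIs, and the alternatives on mast cells, neutrophils and cells of 8000 to 20000 UMIs were chosen after values were seen. Alternatives covered the thresholds of the rule and subsets, thinning to 5000 UMIs (seed 7), the scaling, the pseudocount, the UMI minimum and cells of other lineages. Promoters came from RefSeq, build GRCm38.p6. Python 3.11.15 was used with numpy 2.4.6, scipy 1.17.1, pandas 2.3.3 and matplotlib 3.10.9.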

Additional observations from a re-analysis of the deposited data

Results flagged for a closer look

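Among genes of the lists or ranks that reached 50 CPM in both libraries, 8 had ratios of cycling over non-cycling CD8 cells that lay on opposite sides of 0 in the libraries, with intervals clear of 0 in each. The difference between the libraries was not tested, and with 1 library of each kind it cannot be told apart from any other difference between the libraries. Gzmf stood at 804 CPM in cycling and 775 in non-cycling CD8 cells of library 1 and at 520 against 1065 in library 2, a log2 difference of 1.09 between the ratios. Gadd45b, a gene of the DNA damage response, stood at 213 against 190 CPM and at 167 against 247, a difference of 0.73. Ighm, an immunoglobulin gene of B cells, stood at 72.2 against 63.8 and at 39.2 against 50.2, a difference of 0.53. Below that level, Id3 stood at 5.81 CPM in cycling and 8.89 in non-cycling CD8 cells of library 1 (-0.61, -1.17 to -0.07) and at 22.4 against 8.55 in library 2 (1.39, 0.95 to 1.84).

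The MHC class II genes went the other way. H2-Ab1 stood at 177 CPM in cycling and 267 in non-cycling CD8 cells of library 1 and at 477 against 314 in library 2, a log2 difference of -1.19. The difference was -0.53 for H2-Aa, -0.93 for H2-Eb1 and -0.53 for Cd74. Cma1, a mast cell gene, stood at 8.58 against 71.4 CPM in library 1 and at 224 against 36.7 in library 2, a difference of -5.65, and 1 cycling CD8 cell held 96.4% of its UMIs in library 2.

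Proliferation UMIs also appeared in barcodes that the comparisons did not use. Of 822 barcodes outside the cell filter, 29 met the UMI part of the rule, 11 in library 1 and 18 in library 2; 21 of them held over 10% mitochondrial UMIs and 10 held fewer than 500 genes. A further 238 barcodes met the rule but for 5 or more C1q UMIs, 155 in library 1 and 83 in library 2, with median depths of 28812 and 26481 UMIs. Whether they hold a T cell and a macrophage together was not tested.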

How the results depend on the processing

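No paired analysis was possible because each label has 1 sample and no barcode is tied to a label. Differences between the libraries have no replicate check, and fewer cells and less RNA per cell cannot be told apart in summed UMIs. Over the 10 settings run on gene ratios, 2493 of the values of named genes moved by less than their error, 329 moved further with the same direction and 11 changed sign; of the list medians, 1379 moved little, 42 moved and 27 changed sign. The stricter cell filter, run on cell counts and shares, moved none of them beyond these limits, and scaling without ribosomal protein and mitochondrial genes, median-of-ratios scaling and a pseudocount of 2, run on gene ratios, moved none of the counts of genes past 2-fold. Median-of-ratios scaling shifted the median of all genes for Foxp3 cells of library 2 to 0.02, against -0.12. The causes of the changes below were not tested.

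Thresholds moved the cell counts and shares. With at least 2 rule UMIs, cycling cells made up 22% of T cells in library 1 and 16.3% in library 2 (493 cells there), 25% and 18% of CD8 cells, 19.8% and 13.9% of Foxp3 cells and 12.5% and 9.41% of CD4 cells. With at least 5, they made up 11.2% and 7.52% of T cells and 13.1% and 8.52% of CD8 cells, and in library 1 9.16% of Foxp3 cells and 2.08% of CD4 cells, which were 0.943% of the members. With at least 4 Cd3 UMIs, CD8 cells were 76.1% of the members of library 1. Without any C1q UMI, 158 and 183 cells met the rule, 10.1% and 8.38% of T cells, with 12.8% and 9.24% of CD8 cells and 8.38% of Foxp3 cells of library 1 cycling, and CD8 cells were 75.9% of the members of library 1. After thinning, 368 and 203 cells met the rule, 12.6% and 8.59% of T cells; CD8 cells were 79.9% and 80.8% of the members and 14.1% and 9.27% of them were cycling, as were 10.5% of CD4 cells of library 1. Foxp3 cells were 6.36% of the members of library 1 with 1 UMI of any subset gene and 6.87% with 2 of each, where 10.9% of CD4 cells were cycling.

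Counts of genes past 2-fold, higher and lower, differed with the minimum of UMIs per gene and with the cells kept. Over all T cells, cycling over non-cycling, 615 were lower in library 1 and 677 higher and 431 lower in library 2. With at least 10 UMIs per gene 935 were lower in library 1, and with at least 200 the counts were 301 lower in library 1 and 392 and 184 in library 2. In CD8 cells, 618 and 362 in library 1 and 672 and 314 in library 2 compare with 611 lower in library 1 and 1024 higher in library 2 at 10 UMIs, and with 396 and 149, and 346 and 128, at 200. In Foxp3 cells, 270 and 287 in library 1 and 367 and 498 in library 2 compare with 641 and 560, and 815 and 766, at 10 UMIs; with 75 and 74, and 83 and 139, at 200; with 104 and 151, and 107 and 156, after thinning; with 138 and 163, and 101 and 151, among cells of 8000 to 20000 UMIs; and with 56 and 111 in library 1 and 210 higher in library 2 without cells holding Ncr1 or macrophage UMIs. For library 1 over library 2, 87 and 99 in all cycling T cells, 71 and 113 in CD8 and 95 and 113 in Foxp3 cells compare with 203 and 347, 174 and 382, and 245 and 310 at 10 UMIs; with 28 and 33, 25 and 35, and 10 and 25 at 200; and with 33 and 40, 36 and 41, and 31 and 12 after thinning. Among cells of 8000 to 20000 UMIs the lower counts were 54, 57 and 58. Without cells holding Ncr1 or macrophage UMIs, 45 were higher over all and 53 and 65 were higher and lower in Foxp3 cells.

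Signs changed for small medians and for genes of other lineages. The median of the MHC class II genes, cycling over non-cycling, was 0.19 over all T cells and in CD8 cells of library 2 and 0.17 in Foxp3 cells of library 1. It was -0.44, -0.49 and -0.56 after thinning, -1.26, -2.41 and -2.18 among cells of 8000 to 20000 UMIs, and -0.42 over all and -0.40 in CD8 cells without cells holding Ncr1 or macrophage UMIs. With non-cycling cells of up to 2 rule UMIs it was -0.021 over all and -0.10 in Foxp3 cells. In Foxp3 cells of library 1 the median of the cycle entry genes, 0.25, was -0.075 after thinning, -0.29 at 200 UMIs and -0.33 among cells of 8000 to 20000 UMIs. In the same cells costimulatory receptors, -0.72, were 0.22 and the transcription factors of exhaustion and effector cells 0.23 among cells of 8000 to 20000 UMIs, and these factors 0.31 without cells holding Ncr1 or macrophage UMIs; Trp53inp1, -1.75, was 0.20 after thinning. Il7r in Foxp3 cells of library 2 was 0.23 and glycolysis was -0.062 over all T cells of library 2, and -0.026 and -0.092 in CD8 cells, among cells of 8000 to 20000 UMIs. For library 1 over library 2, checkpoint receptors were -0.031 over all and -0.16 in CD8 cells after thinning and -0.16 in CD8 cells at 200 UMIs, against 0.12 and 0.11. Ccr7 was -0.43 after thinning and -0.082 among cells of 8000 to 20000 UMIs, where cytotoxicity and costimulation in Foxp3 cells were -0.16 and -0.17. The MHC class II median in CD8 cells was 0.018 after thinning and 0.87 without cells holding Ncr1 or macrophage UMIs, 0.89 over all, and there H2-Ab1 in CD8 cells was 1.07, S100a9 was 3.77 over all and 3.80 in CD8 cells, and S100a8 in CD8 cells was 3.97. Without cells holding mast cell or neutrophil UMIs, Cma1 was 0.90 over all and 1.503 in CD8 cells, and Mcpt4 in CD8 cells was 1.10.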

Other observations

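Receptors for cytokines held a smaller share of the transcripts of cycling CD8 cells, with the exception of Il2rb, the beta chain shared by the receptors for IL-2 and IL-15. Of 17 measured, 13 in library 1 and 12 in library 2 had intervals below 0, where 28.1% and 22.9% of all genes did, with median log2 ratios of cycling over non-cycling CD8 cells of -0.50 and -0.39, and Il2rb was the 1 gene above 0 in each. Il2rb stood at 530 CPM in cycling CD8 cells against 465 in non-cycling CD8 cells of library 1 (0.19, 0.13 to 0.25) and at 553 against 458 in library 2 (0.27, 0.20 to 0.35). Il2rg, the gamma chain, stood at 216 against 326 CPM in library 1 (-0.59) and at 183 against 287 in library 2 (-0.65), and Il18r1, a chain of the IL-18 receptor, had -0.50 in both. Il2ra was low, at 24.8 CPM in cycling CD8 cells against 28.5 in non-cycling CD8 cells of library 1 and at 32.8 against 43.1 in library 2. Per cell, 16 of the 17 genes had more UMIs in cycling than in the shallower non-cycling CD8 cells in each library.

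Immediate early genes and heat shock genes went different ways. Of 18 measured, 13 had intervals below 0 and 2 above in each library, with medians of -0.49 and -0.48. Of all genes, 28.1% in library 1 and 22.9% in library 2 had intervals below 0, and 25.8% and 25.7% above. Junb, a subunit of the AP-1 factor, stood at 987 CPM in cycling CD8 cells against 1524 in non-cycling CD8 cells of library 1 (-0.63) and at 996 against 1823 in library 2 (-0.87). The genes above 0 were the chaperones Hsp90aa1, at 0.74 and 0.87, and Hspa8, at 0.32 and 0.43. Counted per cell, 16 of the 18 genes in library 1 and all 18 in library 2 had more UMIs in the deeper cycling CD8 cells. The median ratios per cell were 1.68 and 1.74. Of 12 genes of apoptosis, Trp53, the gene of p53, stood at 116 CPM in cycling CD8 cells against 81.5 in non-cycling CD8 cells of library 1 (0.51, 0.37 to 0.65) and at 117 against 74.0 in library 2 (0.66, 0.50 to 0.83). Mcl1, which opposes cell death, had -0.32 and -0.45. The intervals of Ikzf2, Helios, lay above 0 in CD8 cells of both libraries, at 0.63 (0.54 to 0.73) in library 1 and 0.21 (0.08 to 0.35) in library 2.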
